A study of Mus musculus with 8 samples.

Results

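The immunoglobulin heavy and light chain genes were measured by 77 of the 24965 probe sets on the Affymetrix mouse array types MG-U74A and MG-U74B. A probe set was a member when every gene symbol in its array annotation was a constant, variable, joining or diversity gene of an immunoglobulin chain. MG-U74A held 76 members, namely 28 of heavy constant genes, 9 of heavy variable genes, 2 annotated to heavy variable and constant genes together, 35 of kappa light chain genes and 2 of lambda light chain genes. MG-U74B held 1, for a heavy constant gene. The members carried 36 symbols, and 65 of them had 1 symbol while 12 had several. The series compared wild type mice with mice in which 1 gene was knocked out, in total RNA of their pancreatic islets. Each genotype had 2 arrays of each type, 8 in all, which the series calls biological replicates. The labels do not say from how many animals the RNA came, the age or strain of the mice, or whether the knock-out covered the whole animal, so p-values cover only the differences between these arrays, part of which may be technical.

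An immunoglobulin joins heavy chains to light chains, and each chain has a variable part that binds antigen and a constant part. The constant gene of the heavy chain sets the class of the antibody: Ighm encodes that of IgM, Ighd that of IgD, Ighg3 that of an IgG class and Igha that of IgA, the class of mucosal secretions. Variable exons are assembled by V(D)J recombination in developing B cells, light chains are of the kappa or lambda kind, and plasma cells, which descend from B cells, make these transcripts in large amounts. Islets are clusters of hormone-secreting cells, and immunoglobulin transcripts are not among their known products. Genes of a variable family are closely alike in sequence, so a probe set can also measure relatives of the gene it is named for, and the symbol of a member is uncertain to that extent. The position of its probes within the gene was not analysed here.

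The values were linear intensities, scaled so that each array had the same mean after its highest and lowest 2% of probe sets were left out. Values below 0, which made up 18.4% to 26.7% of an array, were set to 0. A constant of 25 was then added and log2 taken, so a log2 change, given here as knock-out minus wild type with its standard error, is smaller than the ratio of the intensities for dim probe sets. No test was made of probe sets whose mean over the 4 arrays of a type was below 62.5. The test was limma's, with p adjusted by the Benjamini-Hochberg method over all tested probe sets of the array type. A probe set is called higher or lower where the adjusted p was under 0.05.

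Immunoglobulin transcripts were higher in the knock-out islets across heavy constant, heavy variable and kappa genes. The only lambda probe set tested was also called higher, but it passed the filter only through its knock-out arrays. Of the 76 members on MG-U74A, 64 passed the filter, 56 of these were called higher, 0 lower and 8 did not pass the test, with a median log2 change of 3.01. Over all 7516 tested probe sets of that array type 52.9% were called, 23.9% higher and 29.0% lower, with a median of -0.09. Passing the filter favours rises, because 22 of the 64 members reached it only through their knock-out arrays. The other 42 had a wild type mean above the filter, and 36 of them were called higher, with a median log2 change of 2.80 over the 42, beside 21.1% of all probe sets with such a mean. With no filter 56 of the 76 members were called higher and 0 lower, with a median of 2.77, beside 13.9% of all probe sets called higher.

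The genotypes can also be compared with no test threshold. Both knock-out arrays lay above both wild type arrays for 67 of the 76 members, beside 33.6% of all 12422 probe sets, and below both for 2, beside 36.2%. Summed over the members, the intensity was 22351 and 22857 on the wild type arrays and 130557 and 125166 on the knock-out arrays, 5.66-fold higher. The members thus held 0.490% and 0.499% of an array's summed intensity in wild type and 2.76% and 2.71% in knock-out. In bulk RNA a larger number of cells of a type and more RNA per cell cannot be told apart.

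**Figure D1:**
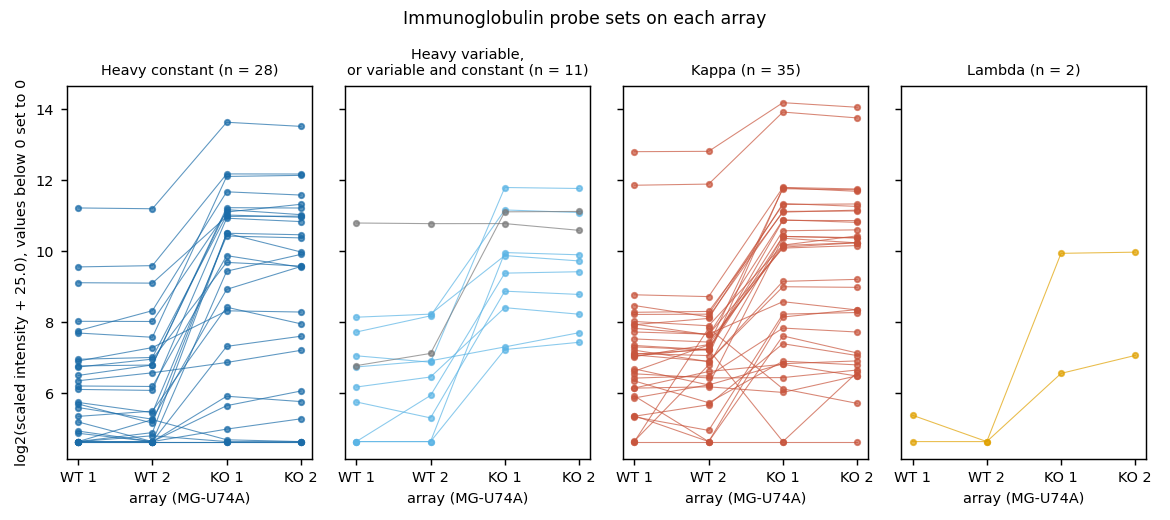
Intensities of the 76 members of MG-U74A on each of the 4 arrays, as log2 of the scaled intensity plus 25 on the vertical axis, with wild type arrays 1 and 2 (WT1, WT2) and knock-out arrays 1 and 2 (KO1, KO2) on the horizontal axis. Each line joins the values of 1 member, in panels for heavy constant, heavy variable (with the members annotated to both), kappa and lambda genes. Most lines run level between arrays of a genotype and step up between genotypes, and both knock-out arrays lie above both wild type arrays for 67 members.

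Large rises were counted only where the wild type mean was above the filter. Of the 42 members with such a mean, 18 (42.9%) were called higher by at least 3 log2 units, beside 0.497% of the 7042 probe sets of the array type with such a mean, which were 35 in all. At least 4 log2 units higher were 8 of these members (19.0%), beside 0.170%, or 12 probe sets. Among the 36 called members with a wild type mean above the filter, the ratio of knock-out to wild type means ran from 1.80 to 34.8, with a median of 8.86.

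Of the 28 heavy constant members on MG-U74A, 21 were tested and 20 called higher. In this group 12 had a wild type mean above the filter, with a median log2 change of 2.98, and 11 of them were called higher, by ratios from 2.57 to 31.0. Both knock-out arrays lay above both wild type arrays for 25 of the 28.

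Ighm, the IgM constant gene, alone named 16 members, of which 11 were tested and 10 called higher. Of the 11, 5 passed the filter only through the knock-out arrays. The other 6 had a wild type mean above it, and 5 of those were called higher. An IgM transcript carries a variable part as well, so some of these probe sets may measure variable sequence of such transcripts, and the division of members into constant and variable genes follows the annotation only. Its brightest probe set, 93583_s_at, gave intensities of 2362 and 2324 on the wild type arrays and 12677 and 11697 on the knock-out arrays. The genotypes did not overlap, and the log2 change was 2.37 ± 0.05 (n = 2 arrays per genotype, limma adjusted p = 1.01e-04). On 93584_at the intensities were 530 and 526 in wild type and 1997 and 2011 in knock-out, a log2 change of 1.88 ± 0.04. Probe set 99420_at gave 183 and 167 in wild type and 4388 and 4482 in knock-out, 4.48 ± 0.06. These 3 probe sets of the same gene rose by ratios of 5.20, 3.80 and 25.4.

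The largest log2 change among all members was that of the Ighm probe set 101870_at. It was listed at -80.6 and 4.80 on the wild type arrays and reached 1432 and 1390 on the knock-out arrays, a change of 5.72 ± 0.14 (limma adjusted p = 1.18e-04). With 1 wild type array below 0 and the other near it, the size of that change depends on the constant added. The other Ighm probe sets called higher were 101871_f_at (4.80 ± 0.13), 97577_f_at (4.76 ± 0.28), 101745_f_at (3.81 ± 0.28), 100362_f_at (3.58 ± 0.20), 102159_at (2.82 ± 0.25) and 100377_f_at (2.78 ± 0.12).

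Both knock-out arrays lay above both wild type arrays for 14 of the 16 Ighm probe sets, though not all could be tested or called. Probe set 101346_at gave 57.0 and 70.7 in wild type and 92.1 and 123 in knock-out, and its change of 0.57 ± 0.22 did not pass the test (limma adjusted p = 0.0908). The 5 that were too dim to be tested, 101276_at, 101749_at, 96966_at, 97568_at and 99885_at, did not exceed 42.1 on any array, and 3 of them had both knock-out arrays above both wild type arrays. With no filter 96966_at was called higher, by 1.08 (limma adjusted p = 0.0216).

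Ighg3, an IgG constant gene, had 7 single-symbol members, and 6 were tested and called higher. Of these 6, 2 passed the filter only through the knock-out arrays, and 4 had a wild type mean above it. On 102721_at the wild type arrays read 236 and 236 and the knock-out arrays 2180 and 2538, a log2 change of 3.19 ± 0.09 (limma adjusted p = 1.69e-04). On 93927_f_at the readings were 65.9 and 86.6 in wild type and 2375 and 2359 in knock-out, 4.57 ± 0.12. The remaining probe sets rose by 4.81 ± 0.28 (101752_f_at), 4.79 ± 0.08 (97008_f_at), 4.32 ± 0.08 (97574_f_at) and 4.0 ± 0.06 (102722_g_at). The untested one, 102723_at, was listed below 0 on all 4 arrays.

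Igha, the IgA constant gene, had 3 members on MG-U74A, all called higher. Of these 3, 97009_f_at passed the filter only through the knock-out arrays. The brightest, 100583_at, read 731 and 750 in wild type and 4611 and 4602 in knock-out, 6.22-fold higher, with a log2 change of 2.60 ± 0.04 (limma adjusted p = 9.39e-05). Arrays of a genotype differed there by far less than the genotypes did. The changes of 97009_f_at and 161486_f_at were 2.76 ± 0.23 and 1.21 ± 0.17. A further member annotated to 3 heavy constant genes, 97575_f_at, rose by 3.51 ± 0.15, and it too passed the filter only through the knock-out arrays. Ighd, the IgD constant gene, had 1 probe set, 101157_at, which was listed at -18.2 and 3.0 in wild type and at -41.2 and -57.4 in knock-out and was too dim to be tested.

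Igha was also the gene of the only member on MG-U74B, 105413_at. It read 195 and 204 in wild type and 456 and 311 in knock-out. Both knock-out arrays were above both wild type arrays, as for 28.7% of all probe sets of that array type. The change of 0.84 ± 0.28 did not pass the test (limma adjusted p = 0.105), on an array type where 8.59% of the 7861 tested probe sets were called higher and 8.87% lower. The median log2 change of all its tested probe sets was 0.11.

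Of the 9 heavy variable members, 8 were tested and 7 called higher. Of the 4 with a wild type mean above the filter, 3 were called higher, and the median log2 change of the 4 was 2.39. All 9 had both knock-out arrays above both wild type arrays. The variable gene Ighv1-54 had 1 probe set, 97563_f_at, with intensities of 108 and 92.7 in wild type and 3531 and 3465 in knock-out. Its ratio of 34.8 was the highest among called members with a wild type mean above the filter (4.81 ± 0.08, limma adjusted p = 9.39e-05).

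Igh-VS107, a symbol kept as the annotation gives it, had 3 probe sets that differed in size of change. Probe set 97720_at was listed at -9.00 and -8.10 in wild type and at 974 and 932 in knock-out, 5.29 ± 0.13. Since both wild type values were set to 0, they have no spread there, and the standard error rests on the knock-out pair and limma's pooling over probe sets. The same holds for 2 other called members, 102159_at of Ighm and 93638_s_at of the lambda chain. Probe set 102152_f_at read 258 and 276 in wild type and 918 and 824 in knock-out, 1.62 ± 0.08. On 98776_at the readings were 82.3 and 96.0 in wild type and 134 and 184 in knock-out, and the change of 0.68 ± 0.20 did not pass the test (limma adjusted p = 0.0515).

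Of the remaining heavy variable genes, Ighv3-6 rose by 4.11 ± 0.47 on 96970_at and Ighv5-12 by 3.17 ± 0.17 on 98765_f_at. Ighv14-2 rose by 3.30 ± 0.21 on 92740_at and by 2.00 ± 0.17 on 98974_at. Like 97720_at, the probe sets 96970_at, 92740_at and 98974_at passed the filter only through the knock-out arrays. The remaining Ighv14-2 probe set, 92741_g_at, was listed below 0 in wild type and at 126 and 149 in knock-out and fell under the filter.

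The pair of members annotated to variable and constant genes together behaved differently from each other. Probe set 92470_f_at read 85.1 and 115 in wild type and 2188 and 2206 in knock-out, a log2 change of 4.16 ± 0.13. Probe set 99421_at read 1754 and 1733 in wild type and 1735 and 1517 in knock-out, and its change of -0.10 ± 0.07 did not pass the test (limma adjusted p = 0.309). The knock-out and wild type readings of 99421_at overlapped, and it was the brightest member without a call.

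**Figure D2:**
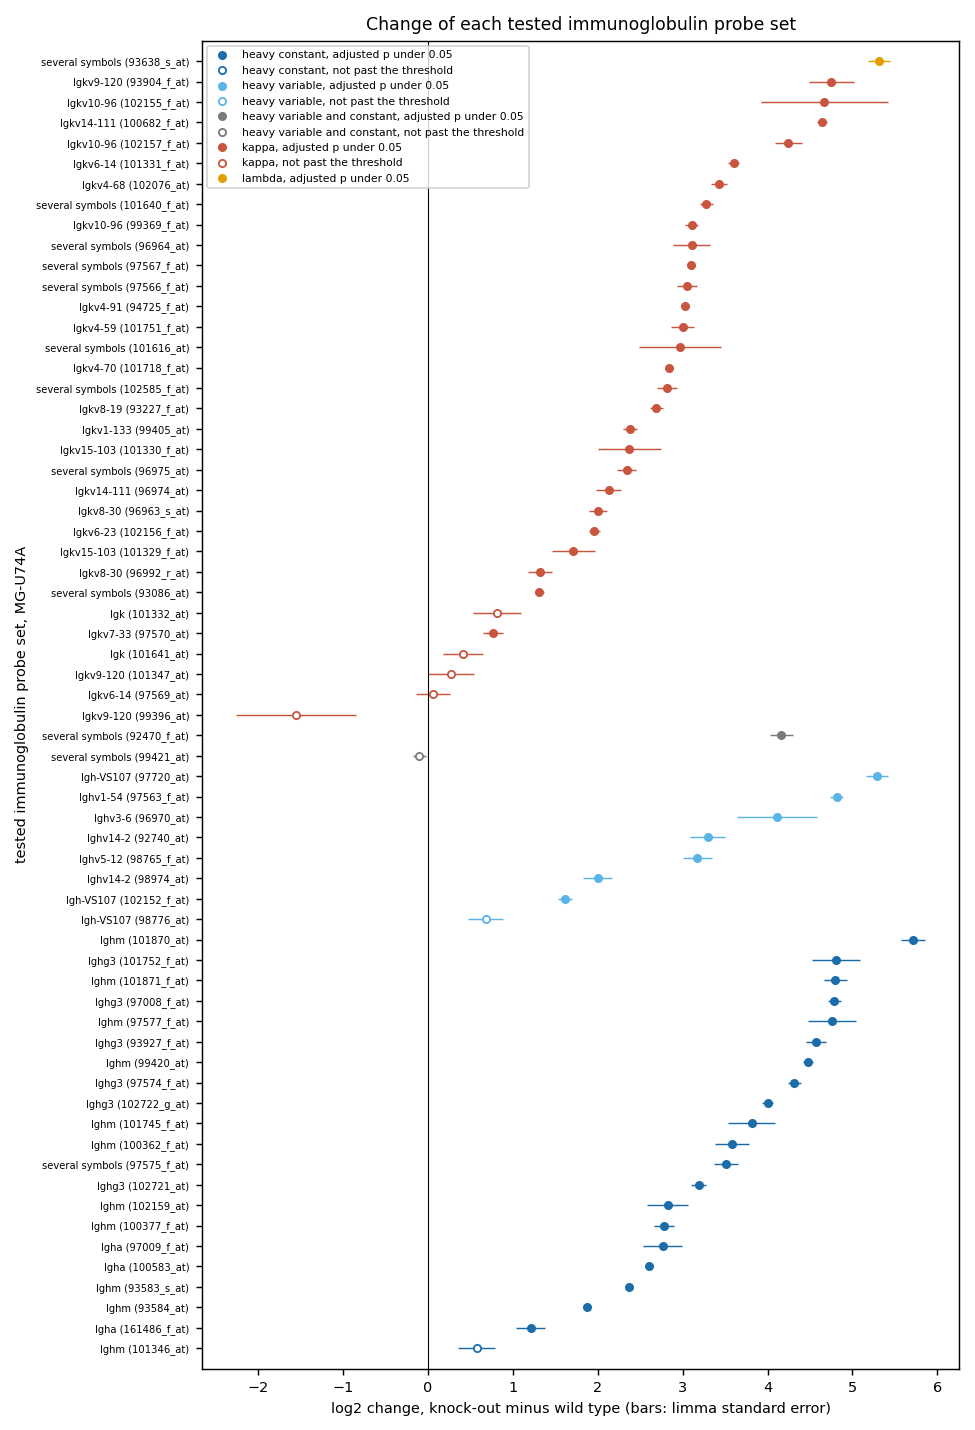
Log2 change, knock-out minus wild type, of the tested members of MG-U74A on the horizontal axis, 1 row for each probe set, ordered within its chain group. Points are the limma estimates from 2 arrays per genotype, bars are standard errors, and the fill marks whether the adjusted p was under 0.05. Called members lie between 0.77 and 5.72, and the 8 others lie between -1.55 and 0.81.

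Of the 35 kappa members, 32 were tested and 27 called higher. Of the 24 with a wild type mean above the filter, 21 were called higher, by ratios from 1.80 to 31.9, and the median log2 change of the 24 was 2.75. Both knock-out arrays lay above both wild type arrays for 30 of the 35. No member named the kappa constant gene Igkc alone, but 5 had it among their symbols and all 5 were called higher. The brightest of them, 93086_at, read 7130 and 7179 in wild type and 18592 and 16997 in knock-out, 2.49-fold higher (1.31 ± 0.05, limma adjusted p = 3.14e-04).

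Among kappa variable genes with 1 symbol, Igkv6-23 had the brightest probe set, 102156_f_at. It read 3692 and 3777 in wild type and 15474 and 13795 in knock-out, 3.92-fold higher (1.96 ± 0.06, limma adjusted p = 2.26e-04). Igkv14-111 rose by 4.64 ± 0.06 on 100682_f_at, from 115 and 109 to 3508 and 3276. Its probe set 96974_at rose by less, 2.13 ± 0.14. The last of its probe sets, 100683_r_at, read -212 and 204 on the wild type arrays, so no level could be given, and it fell under the filter.

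Igkv9-120 showed the widest split within a kappa gene. Probe set 93904_f_at read 73.7 and 140 in wild type and 3450 and 3378 in knock-out, 4.75 ± 0.26 (limma adjusted p = 6.00e-04). Probe set 101347_at read 46.1 and 73.2 in wild type and 88.0 and 64.8 in knock-out, so the genotypes overlapped (0.27 ± 0.27, limma adjusted p = 0.446). Probe set 99396_at read 113 and 126 in wild type and 0.00 and 71.6 in knock-out, and its change of -1.55 ± 0.71 did not pass the test (limma adjusted p = 0.139). Igkv6-14 was split in the same way, with 101331_f_at at 134 and 124 in wild type and 1848 and 1839 in knock-out (3.60 ± 0.06) and 97569_at at 0.06 ± 0.20 (limma adjusted p = 0.824).

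Igkv10-96 rose on all 3 of its probe sets, by 4.67 ± 0.75 on 102155_f_at, by 4.24 ± 0.16 on 102157_f_at and by 3.11 ± 0.07 on 99369_f_at. Of these, 102155_f_at and 102157_f_at passed the filter only through the knock-out arrays. The wild type arrays disagreed on 102155_f_at, at 0.300 and 86.5, and its call was lost with no filter (limma adjusted p = 0.0586) and without either knock-out replicate. Knock-out readings of the 3 probe sets were closer, between 1183 and 1345.

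The Igkv4 family rose together. All 8 members that carried only Igkv4 symbols, with or without Igkc, were called higher, with log2 changes between 2.82 and 3.43, a median of 3.04 and ratios from 7.51 to 12.8. Igkv4-68 rose by 3.43 ± 0.09 on 102076_at, from 108 and 129 to 1504 and 1532. Igkv4-91 rose by 3.03 ± 0.04 on 94725_f_at, from 414 and 398 to 3536 and 3431, and Igkv4-70 by 2.84 ± 0.05 on 101718_f_at, from 287 and 292 to 2176 and 2263. These 8 probe sets share symbols and closely related sequence, so they are not independent readings. A pair of members named only by the locus symbol Igk, 101332_at and 101641_at, did not pass the test, at 0.81 ± 0.29 and 0.41 ± 0.23. The other called kappa members rose by 0.77 to 3.11. Among them 101329_f_at, 101330_f_at, 101616_at and 96964_at, the last at the upper end, passed the filter only through the knock-out arrays.

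Lambda light chains had 2 members. Probe set 93638_s_at, annotated to a constant and a variable lambda gene, was listed at -26.9 and -44.5 in wild type and at 960 and 983 in knock-out, 5.32 ± 0.13 (limma adjusted p = 1.18e-04). Probe set 93639_r_at of Iglc1, a lambda constant gene, read 16.8 and -1.90 in wild type and 69.6 and 109 in knock-out. Both knock-out arrays were above both wild type arrays, but the mean was under the filter. Log2 changes from wild type values below 0 depend on the constant.

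Whether a member was called ran with the kind of its identifier, which the rule did not use. An Affymetrix identifier that ends in a letter and at, such as f_at for a family, marks a probe set designed on sequence shared by several transcripts or chosen under relaxed rules, and a plain at marks the standard design. All 26 members of MG-U74A with such a letter and a wild type mean above the filter were called higher, 22 of them of the f_at kind, with a median log2 change of 3.07. Of the 16 plain members with such a mean 10 were called higher, with a median of 1.59. A further 12 members with a letter and 10 plain ones passed the filter only through the knock-out arrays. The 8 tested members that were not called were all plain. No test was made of this split, because members share genes and sequence.

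The wild type level also ran with the size of the rise. The 6 called members with a wild type mean of at least 400 had a median ratio of 4.56, and the 30 called members between the filter and 400 had one of 9.57. Wild type readings enter both quantities, so this is a description. In wild type 8 members were listed at or below 0 on both arrays, of which 3 were called higher, and 11 on 1 array. Knock-out means of the 12 untested members ran from -49.3 to 137, and 7 of these had both knock-out arrays above both wild type arrays.

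**Figure D3:**
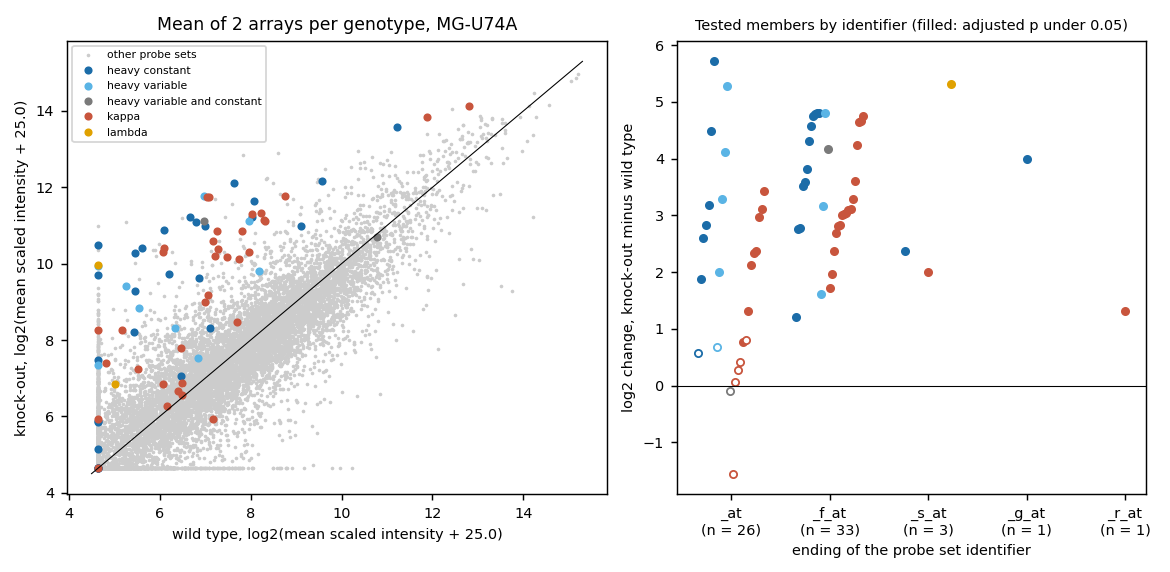
Left, the mean of the knock-out arrays against that of the wild type arrays on MG-U74A, both as log2 of the scaled intensity plus 25, with members coloured by chain group and other probe sets in grey. Right, log2 change of tested members by identifier kind, 1 point for each probe set. Members lie mostly above the diagonal, and the 8 members without a call all have plain identifiers.

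The knock-out arrays agreed closely on the called members. The ratio of knock-out array 1 to array 2 ran from 0.627 to 1.48 over the 56, with a median of 1.03, and it lay within 10% of equality for 40 of them. These ratios are small beside most of the differences between genotypes.

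Other B lineage genes were compared on lists of their receptors, signalling proteins, transcription factors, secretion factors and recombination enzymes. The lists were not limited to genes made only by B cells. Each gene is given by its probe set with the highest mean, so counts of genes are set here beside shares of probe sets. On MG-U74A 31 of the listed genes were tested, 18 were called higher and 2 lower. Of these 31, 7 passed the filter only through the knock-out arrays, and all 7 were called higher. The other 24 gave 11 higher and 2 lower with a median log2 change of 0.57, beside 21.1% of all probe sets with a wild type mean above the filter called higher. On MG-U74B 6 were tested, and 4 were called higher, of which 1, Mzb1, passed only through the knock-out arrays. The other 5 gave 3 higher and 0 lower with a median of 1.33, beside 7.60% of all such probe sets.

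Of the B cell receptor and its co-receptors, 7 of 10 tested genes were called higher on MG-U74A and 0 lower. Among the 7, Cd79a, Cd72 and Fcgr2b passed the filter only through the knock-out arrays. Over all tested probe sets of that array type 23.9% were called higher, a share that stands beside each list count below. Cd79a, which anchors the receptor and carries its signal, had values below 0 on both wild type arrays, and on the knock-out arrays values of 1356 and 1340 (5.78 ± 0.11). Its partner Cd79b read 472 and 490 in wild type and 1448 and 1344 in knock-out (1.49 ± 0.06). Cd72 (2.12 ± 0.13), the tetraspanin gene Cd37 (2.08 ± 0.17), the inhibitory Fc receptor gene Fcgr2b (2.08 ± 0.27), Cd24a (0.56 ± 0.12) and Cd40 (0.54 ± 0.13) rose too. Fcer2a (-0.14 ± 0.17) and the plasma cell receptor gene Tnfrsf17 (0.13 ± 0.15) did not pass the test.

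Ms4a1, which encodes CD20, gave different readings by probe set. The brightest on MG-U74A was at 0.08 ± 0.05 and did not pass the test, another on that array type was called higher, and the one on MG-U74B rose by 1.33 ± 0.27. Tnfrsf13b, a receptor for B cell survival factors, rose by 1.45 ± 0.17 on MG-U74B. All 5 tested signalling genes on MG-U74A were called higher: Cd74, the invariant chain of antigen presentation (1.70 ± 0.03), the kinase genes Btk (1.55 ± 0.19), Blk (1.23 ± 0.24) and Syk (0.90 ± 0.07), and the adaptor gene Blnk (1.47 ± 0.07). Among them Btk passed the filter only through the knock-out arrays.

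Transcription factors were split, with 4 of 7 called higher on MG-U74A. Among the 4, Irf4 and Ikzf1 passed the filter there only through the knock-out arrays. Irf4, which drives plasma cell formation, had values below 0 on the wild type arrays and of 221 and 272 on the knock-out arrays (3.43 ± 0.22). Pou2af1, a coactivator of immunoglobulin promoters, read 84.7 and 112 in wild type and 603 and 618 in knock-out (2.37 ± 0.14). Ikzf1 (1.54 ± 0.23, and 2.14 ± 0.25 on MG-U74B) and Irf8 (1.26 ± 0.05) rose. Pax5, which maintains B cell identity, read 403 and 426 in wild type and 435 and 403 in knock-out (0.01 ± 0.08), and Bcl6 (-0.07 ± 0.16) and Spib (0.58 ± 0.77) did not pass the test either. The other Spib probe set was called lower (-0.52 ± 0.13, limma adjusted p = 0.0348).

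Genes of antibody assembly and secretion went both ways. Jchain, which links the units of IgM and IgA polymers, read 459 and 465 in wild type and 1944 and 2107 in knock-out (2.07 ± 0.06, limma adjusted p = 1.69e-04). Mzb1, a chaperone of IgM assembly, read -148 and -11.7 in wild type and 3835 and 4134 in knock-out. Both wild type values were set to 0, so the size of its change, 7.32 ± 0.21 (limma adjusted p = 0.00204), depends on the constant added: it was 8.32 with a constant of 5% of the trimmed mean and 6.33 with one of 20%.

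In the same list Pigr, the epithelial receptor that carries IgA and IgM across mucosa, fell from 877 and 907 to 350 and 386 (-1.22 ± 0.07), and Xbp1, a factor of secretory cells of several kinds, fell by 0.41 ± 0.04. Sdc1 (0.66 ± 0.25), Derl3 (0.48 ± 0.14) and Fkbp11 (-0.32 ± 0.15, and 0.15 ± 0.20 on MG-U74B) did not pass the test. The recombination and repair genes Rag1 (0.58 ± 0.46) and Ung (0.08 ± 0.13) did not pass it. Vpreb3 rose by 1.76 ± 0.26 but passed the filter only through the knock-out arrays. Of the surrogate light chain of B cell precursors, Vpreb1, at -0.33 ± 0.11, did not pass the test, and Igll1 was too dim to be tested.

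**Figure D4:**
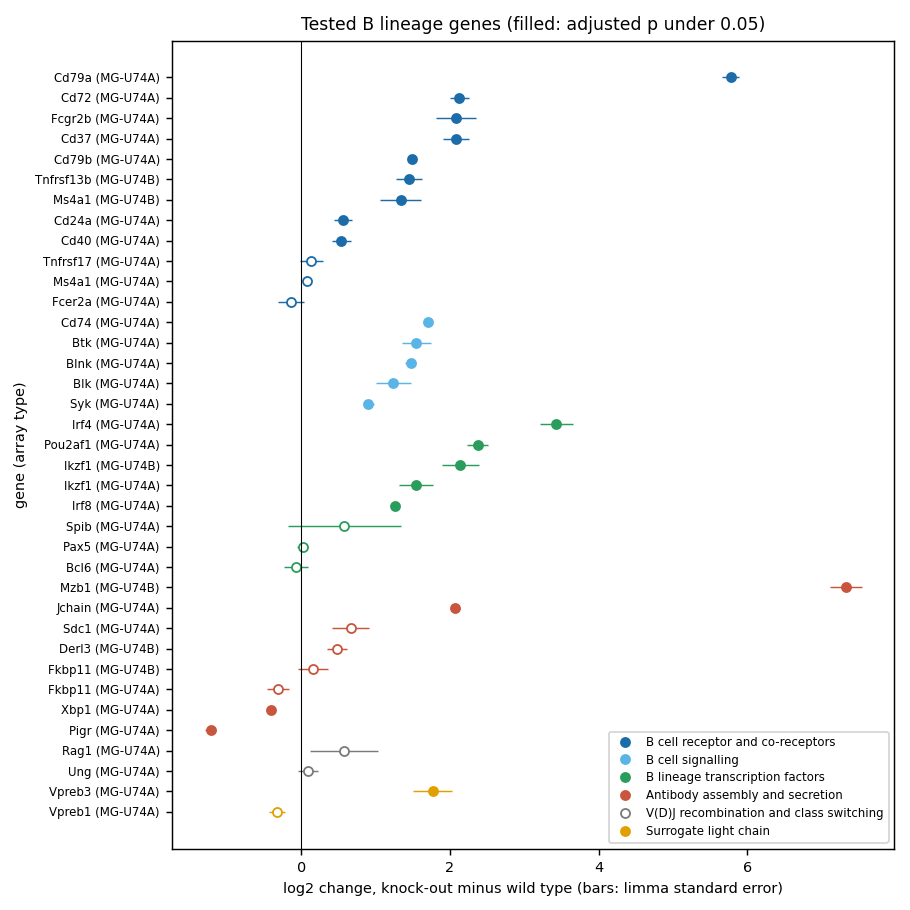
Log2 change, knock-out minus wild type, of the tested B lineage genes on the horizontal axis, 1 row for each gene and array type, coloured by list. Points are limma estimates with standard errors from 2 arrays per genotype, filled where the adjusted p was under 0.05 and open otherwise. Cd79a on MG-U74A and Mzb1 on MG-U74B lie farthest to the right, and Pigr and Xbp1 are the filled points left of 0.

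Markers of other cells moved on the same arrays. Their counts on MG-U74A are set beside 23.9% of all tested probe sets called higher and 29.0% called lower. Of the tested T cell genes 2 of 5 were called higher, Cd3d and Thy1, and the summed level of the list was 742 to 825 in wild type and 1499 to 1699 in knock-out. Both Cd3d and Thy1 passed the filter only through the knock-out arrays. Cd247, Cd4 and Zap70, with wild type means above the filter, did not pass the test, though another Zap70 probe set was called higher. All 7 tested macrophage genes were called higher (sums of 2607 to 2804 and of 7589 to 7849), as were 2 of 3 red cell genes (309 to 337 and 702 to 770.1) and 2 of 4 genes of lymph node vessels and follicles (660 to 939 and 4702 to 4741). The red cell gene Hbb-b2, with a wild type mean of 12.4, was also tested only through its knock-out arrays. In the lymph node list Glycam1 rose from 64.6 and 64.2 to 2334 and 2311, and Cxcl13 was listed below 0 in wild type. Islet endocrine genes were detected in both genotypes and all 7 tested were lower in knock-out (sums of 120178 to 120889 and of 78292 to 86447). All 5 tested acinar genes were lower too (36459 to 36802 and 4536 to 4926). For Gapdh, the 3' probe set was divided by the 5' one, a ratio that is higher for less complete RNA. It was 3.07 to 3.22 on wild type arrays and 0.90 to 0.949 on knock-out arrays. For actin the same ratio differed less, at 1.45 to 1.48 on wild type arrays and 1.12 to 1.18 on knock-out arrays. The part of these differences in the immunoglobulin result was not tested.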

How the data were processed

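Pancreatic islet RNA of 2 genotypes was hybridised to MG-U74A and MG-U74B, 2 arrays of each per genotype. The deposited files hold a linear intensity for each probe set, which the authors had scaled to a common trimmed mean, as the values show. Their software is not given in the sources used. Each array was set to the trimmed mean of its type (250.2 and 250.1), by factors of 1.00. Negative values were replaced by 0, 25 was added and log2 taken. The 66 control probe sets of each type and those with a mean below 62.5 were not tested. Genotypes were compared within an array type with lmFit and eBayes with trend in limma 3.58.1 (R 4.3.3), two-sided, without a replicate block. An exact permutation test of 2 against 2 cannot give p below 0.333, so p-values rest on pooling the spread over probe sets. The number of arrays limits the precision. Samples with the same replicate number did not deviate together (correlations across probe sets of 0.02 and 0.03). Whether the samples were paired in preparation cannot be told from this, and the labels do not say. The procedure was tested on simulated data.

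Symbols came from the array annotation and matched a table of GRCm38.p6, used for names, for 35 of 36 symbols. Named with values were single-symbol constant genes, lambda probe sets, the 6 largest rises and 6 highest means among heavy and kappa variable genes with the other probe sets of those genes, and tested B lineage genes. Other members given were chosen after their values were seen. The members and lists were chosen with earlier results of these data known. The alternatives were other constants, a floor, other filters, quantile normalization, no variance trend, subsets of members and leaving out each replicate. The targeted gene is not reported here; genotypes are as labelled.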

Additional observations from a re-analysis of the deposited data

How the results depend on the processing

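On MG-U74A the members called higher stayed within 1.5 times the reported 56 under every alternative run on all members, and were 54 to 55 without 1 replicate. Without a replicate the lone array of its genotype is assumed to vary like the others. The median log2 change of tested members, reported as 3.01, was 3.18 with a constant of 5% and 2.74 with one of 20%, 3.22 with a floor, 2.77 with no filter, 3.14 with a filter of 50%, 3.0 with quantile normalization and 2.91 to 3.03 without 1 replicate. It was 2.92 for members with 1 symbol, 2.23 for plain identifiers, where 18 were called higher, and 3.04 without members named only Igk, a choice made after seeing the data. The count called lower was 0 to 1 without a replicate, being 99421_at without knock-out replicate 1 (-0.20, adjusted p = 0.0150) and 99396_at without knock-out replicate 2 (-2.53, adjusted p = 0.0062). The change of 97569_at, not called, turned negative without wild type replicate 2 (-0.000228) or knock-out replicate 2 (-0.0486), in a range of -0.0486 to 0.165 without 1 replicate. Of the 56 called probe sets 53 stayed called in every setting that tested them. The exceptions besides 102155_f_at were 101616_at (adjusted p = 0.0565 with no filter, 0.0584 and 0.0659 without a knock-out replicate) and 97570_at (0.0511 and 0.0590 without a wild type replicate). Probe set 98776_at passed with a floor (0.0491), no variance trend (0.0494) or without knock-out replicate 1 (0.0331). A replicate block gave 56 called higher and changed no call. The Igha probe set of MG-U74B was not called in any setting and ranged from 0.58 to 1.1 without a replicate. For dim members the signal over background, not the test, limits the size given.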
